A study of Mus musculus with 9 samples.

Results

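Chemokine ligand genes were examined in bulk RNA-seq of sorted lung neutrophils from BALB/c female mice. The genes are Cxcl1, Cxcl2, Cxcl3, Cxcl10, Cxcl16, Ccl2, Ccl3, Ccl4, Ccl6 and Ccl9, selected by symbol. They are 10 of the 22064 genes listed, and all 10 were among the 14108 genes tested after low counts were filtered out. The 9 libraries fall into 3 groups of 3. Ly6Ghigh and Ly6Glow neutrophils came from lung at the macrometastatic stage, reached after 4T1-LM3 cells had been injected into the mammary fat pad. The third group, titled NL and called normal lung here, was Ly6Ghigh neutrophils from lung, with no tumor injection named in its labels. 4T1-LM3 was selected in vivo for spread to the lung from 4T1, a mouse breast cancer line. All groups were sorted as CD45+ cells, no genetic modification of the mice is named, and the mice's age at sorting is not given for these libraries. The description field of the normal lung libraries names only the Ly6Ghigh group, so their assignment rests on the title and treatment fields. Whether a library is 1 mouse or a pool is not stated, so p-values measure the spread between these libraries, which may be technical.

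Chemokines are small secreted proteins that guide leukocytes along gradients through G protein-coupled receptors. Cxcl1, Cxcl2 and Cxcl3 bind Cxcr2 and recruit neutrophils, and activated neutrophils release them themselves. Ccl3 and Ccl4 act on monocytes, macrophages and T cells, Ccl2 draws Ccr2-bearing monocytes, and Ccl6 and Ccl9 are mouse ligands of Ccr1 made by myeloid cells. Cxcl10 is induced by interferon and attracts T cells through Cxcr3, while Cxcl16 is made as a membrane protein, is shed by Adam10 and is read by Cxcr6.

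Levels of a gene between groups are given as CPM, counts scaled to library sizes normalized by the trimmed mean of M-values (TMM). Levels between genes are given as FPKM, which corrects for transcript length. To be called higher or lower, a gene had to reach an edgeR adjusted p of 0.05 or less with a log2 fold change beyond 0.58 in either direction. The libraries held 15267177 to 17841807 estimated counts each, and TMM factors were 0.945 to 0.95 in macrometastatic Ly6Ghigh, 0.803 to 0.807 in Ly6Glow and 1.3 to 1.32 in normal lung libraries. The neutrophil markers S100a8 and S100a9 and 7 others were present in every group, and their summed level was 70970 to 72810 CPM in macrometastatic Ly6Ghigh, 76260 to 77970 CPM in Ly6Glow and 18250 to 18510 CPM in normal lung libraries. Ly6g mRNA was 374 ± 10.8 CPM (SD, n = 3) in macrometastatic Ly6Ghigh, 394 ± 9.32 CPM in Ly6Glow and 119 ± 1.40 CPM in normal lung libraries, so the sorted groups of the macrometastatic lung did not differ in this transcript past the threshold (adjusted p = 0.0577, edgeR). Their libraries still did not overlap by CPM, at 361.2 to 380.1 in Ly6Ghigh and 384.6 to 403.2 in Ly6Glow (unadjusted p = 0.0329, edgeR). By FPKM the order turned, with 409 ± 11.4 in Ly6Ghigh and 366 ± 7.92 in Ly6Glow libraries, again without overlap.

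In macrometastatic lung, 4 of the 10 ligand genes were higher in Ly6Glow than in Ly6Ghigh neutrophils and none was lower by edgeR or DESeq2. At an unadjusted p under 0.05, with no fold threshold, 6 were higher and 2 lower. An edgeR adjusted p of 0.05 or less, with no fold threshold, gave the same numbers. Of the 14108 tested genes it gave 3686 higher and 4182 lower. The called genes were Cxcl2, Cxcl3, Ccl3 and Ccl4, between 1.81-fold and 2.39-fold. Among all tested genes 9.29% were called higher and 15.9% lower in this comparison. The median log2 fold change of the ligand genes was 0.43, against -0.041 over all tested genes. Libraries of both groups did not overlap for 7 of the ligand genes and for 62.1% of all tested genes.

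Against normal lung, 6 of the 10 were lower in macrometastatic Ly6Ghigh neutrophils and none was higher, by edgeR or DESeq2. At an unadjusted p under 0.05, with no fold threshold, 9 were lower and none higher. An edgeR adjusted p of 0.05 or less, with no fold threshold, gave the same numbers. Of the 14108 tested genes it gave 5629 higher and 6301 lower. Cxcl10 and Cxcl16 had the largest differences of the 10, 8.33-fold and 8.49-fold, followed by Cxcl1, Ccl2, Cxcl3 and Ccl4. Of all tested genes, 26.3% were called higher and 36.6% lower, and the median was -0.68 for the ligand genes and -0.088 for all. Groups did not overlap for 9 of the 10 and for 85.2% of all tested genes.

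Macrometastatic Ly6Glow neutrophils held higher Cxcl2 and Ccl3 and lower Cxcl1, Cxcl10, Cxcl16, Ccl2 and Ccl9 than normal lung Ly6Ghigh neutrophils. Here 28.7% of tested genes were called higher and 40.8% lower, with medians of -0.46 for the ligand genes and -0.16 for all. For 9 of the 10 the groups did not overlap, as for 86.8% of all tested genes. All 3 comparisons draw on the same 3 groups, so none is independent of the others.

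Scaling matters for the comparisons with normal lung. On log2(FPKM + 1), fitted with limma, the median of all tested genes moved from -0.041 to -0.13 for Ly6Glow over Ly6Ghigh, from -0.088 to -0.32 for macrometastatic Ly6Ghigh over normal lung, and from -0.16 to -0.49 for Ly6Glow over normal lung. Of the genes called, the share that was higher moved from 36.8% to 14.3%, from 41.8% to 21.8% and from 41.3% to 14.9%. With FPKM, 9 ligand genes were called lower in macrometastatic Ly6Ghigh than in normal lung neutrophils, and 6 lower with none higher in Ly6Glow neutrophils. Among the 14108 tested genes, that fit called 5134 lower and 1429 higher in Ly6Ghigh, and 6438 lower and 1125 higher in Ly6Glow. Upper-quartile normalization put the medians of all genes at -0.28 and -0.35 in the comparisons with normal lung.

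**Figure D1:**
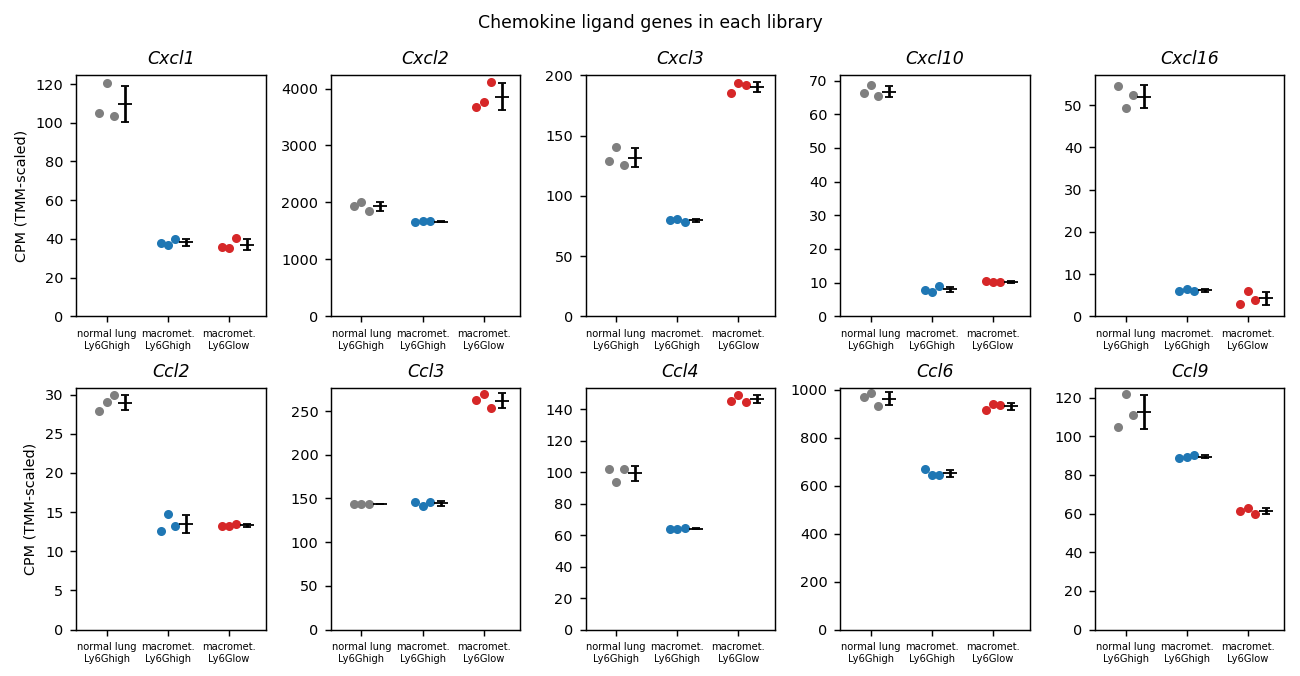
Level of each ligand gene in each library, as CPM on a linear axis from 0, for normal lung Ly6Ghigh (grey), macrometastatic Ly6Ghigh (blue) and macrometastatic Ly6Glow (red) neutrophils; points are libraries, and the black mark is the mean with the SD of 3. Cxcl2, Cxcl3, Ccl3 and Ccl4 were highest in Ly6Glow, whereas Cxcl1, Cxcl10, Cxcl16, Ccl2 and Ccl9 were highest in normal lung. On FPKM, Cxcl3, Ccl4 and Ccl6 were highest in normal lung as well.

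Positions are given for mm10, the build named in the submitters' processing notes, from the GENCODE M21 annotation. Cxcl3 (chr5:90786103-90789600, plus strand), Cxcl1 (chr5:90891241-90893115, plus strand) and Cxcl2 (chr5:90903871-90905938, plus strand) lie in 1 cluster, with 10.8 kb between Cxcl1 and Cxcl2 and 101.6 kb, in which Cxcl15 lies, between Cxcl3 and Cxcl1. Cxcl10 (chr5:92346638-92348889, minus strand) is on the same chromosome. Ccl9 (chr11:83572919-83578636, minus), Ccl6 (chr11:83587882-83593087, minus), Ccl3 (chr11:83647844-83649355, minus) and Ccl4 (chr11:83662584-83664683, plus) form a second cluster, with Ccl2 (chr11:82035571-82037453, plus) and Cxcl16 (chr11:70453983-70459984, minus) elsewhere on that chromosome.

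RefSeq promoters (GRCm38.p6, the assembly behind mm10) were matched for 7 of the 10 ligand genes. They are shown for the 3 Cxcr2 ligand genes, of which Cxcl1 alone was not called between the macrometastatic groups. Cxcl10 is shown as the interferon-induced gene of the set, and Ccl3 as a gene that holds none of the motifs searched. Each runs 5′ to 3′ on the gene's strand and ends 1 base before the RefSeq start, and capitals mark matches to the NF-kB, AP-1 (TGANTCA), interferon response element (ISRE) or TATA box (TATAAA) motifs on either strand.
Cxcl1 (chr5:90891115-90891244): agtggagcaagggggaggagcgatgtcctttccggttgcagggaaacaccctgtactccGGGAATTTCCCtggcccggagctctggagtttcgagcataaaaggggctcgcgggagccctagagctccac
Cxcl2 (chr5:90903769-90903898): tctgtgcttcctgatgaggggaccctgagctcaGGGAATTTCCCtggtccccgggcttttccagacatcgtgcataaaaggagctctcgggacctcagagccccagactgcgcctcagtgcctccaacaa
Cxcl3 (chr5:90785971-90786100): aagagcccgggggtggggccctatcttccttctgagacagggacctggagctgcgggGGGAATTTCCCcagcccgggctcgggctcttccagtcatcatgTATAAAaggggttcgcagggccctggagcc
Cxcl10 (chr5:92348890-92349109): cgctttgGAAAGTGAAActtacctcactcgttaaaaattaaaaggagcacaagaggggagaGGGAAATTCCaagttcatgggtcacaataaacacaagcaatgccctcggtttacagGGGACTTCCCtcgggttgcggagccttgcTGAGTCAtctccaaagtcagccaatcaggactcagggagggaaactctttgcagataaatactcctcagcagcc
Ccl3 (chr11:83649379-83649508): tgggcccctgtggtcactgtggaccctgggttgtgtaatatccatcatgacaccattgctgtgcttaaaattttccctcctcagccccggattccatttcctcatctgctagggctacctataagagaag

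The same 11 letters, GGGAATTTCCC, stood in the Cxcl1, Cxcl2 and Cxcl3 promoters, beginning at -71, -97 and -73 from the start. They hold 2 overlapping NF-kB matches, 1 on each strand. Cxcl10 held 2 NF-kB matches, at -159 and -103, an ISRE match at -213 and an AP-1 match at -74. Ccl9 (not shown) held an NF-kB match at -35 on the minus strand, an AP-1 match at -53 and TATA matches at -224, -94 and -92. In the 300 bases searched, from 250 before to 50 after the start, Ccl3 and Ccl6 held no match to the motifs searched. Of 32851 RefSeq promoters of this length, 4.51% held an NF-kB match, 7.81% AP-1, 3.44% ISRE and 13.6% TATA. A match describes letters only, and the part of these motifs in the levels of the genes was not tested.

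Cxcl2, the neutrophil-recruiting ligand also known as MIP-2, was the most abundant of the 10. Its level was 1650, 1667 and 1675 CPM in macrometastatic Ly6Ghigh, 3683, 3772 and 4122 CPM in Ly6Glow and 1931, 2001 and 1856 CPM in normal lung libraries. All Ly6Glow libraries stood above all others, and the macrometastatic Ly6Ghigh libraries stood just under those of normal lung. Cxcl2 was 2.32-fold higher in Ly6Glow than in Ly6Ghigh neutrophils of the same stage (log2 fold change 1.21 with an SE of 0.037, adjusted p = 5.11e-17 by edgeR). Against normal lung the log2 fold change was -0.21 (SE 0.036) in Ly6Ghigh neutrophils, under the threshold for a call, and 1.00 (SE 0.037, adjusted p = 9.22e-17) in Ly6Glow neutrophils. With FPKM the last value fell to 0.30 and lost its call, and Ly6Ghigh was called lower than normal lung at -0.68.

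Cxcl3, a close relative of Cxcl2 that also binds Cxcr2, was 80.2, 80.4 and 78.2 CPM in macrometastatic Ly6Ghigh, 185, 194 and 192 CPM in Ly6Glow and 129, 141 and 126 CPM in normal lung libraries. The groups were fully separated, in the order Ly6Glow, normal lung, macrometastatic Ly6Ghigh. Cxcl3 was 2.39-fold higher in Ly6Glow than in Ly6Ghigh neutrophils of macrometastatic lung (log2 fold change 1.26 with an SE of 0.044, adjusted p = 5.98e-16 by edgeR) and 1.65-fold lower in macrometastatic Ly6Ghigh than in normal lung neutrophils. Against normal lung Ly6Glow stood at 0.53, under the threshold, and this value turned to -0.17 with FPKM and to a call of higher at 0.62 with DESeq2 and at 0.585 without normal lung replicate 2. Of the 50-base windows of its transcripts, 6.31% occur in Cxcl2 too, and 3.28% of those of Cxcl2 occur in Cxcl3, so a small part of their reads could have been divided between them.

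Cxcl1, the third Cxcr2 ligand of the cluster, did not rise with them in Ly6Glow over macrometastatic Ly6Ghigh neutrophils. It was 37.9, 36.7 and 40.05 CPM in macrometastatic Ly6Ghigh, 35.6, 35.5 and 40.25 CPM in Ly6Glow and 105, 121 and 104 CPM in normal lung libraries. By CPM the macrometastatic groups overlapped, and all normal lung libraries lay above both. Ly6Glow and Ly6Ghigh neutrophils differed by a log2 fold change of -0.041, with a 95% interval from -0.19 to 0.11 and an edgeR adjusted p of 0.66. The sign turned with DESeq2. With FPKM these groups did not overlap, at 38.44 to 42 in Ly6Ghigh and 31.38 to 35.8 in Ly6Glow libraries, though the difference was still not called. Cxcl1 was 2.87-fold lower in macrometastatic Ly6Ghigh than in normal lung neutrophils (log2 fold change -1.52, SE 0.061, adjusted p = 6.37e-16) and 2.95-fold lower in Ly6Glow. These calls were kept under every alternative run, with FPKM included.

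Within a library, the ratio of 2 ligands does not depend on how libraries are scaled. The FPKM of Cxcl2 was 38.2 ± 1.59 times that of Cxcl1 in macrometastatic Ly6Ghigh, 91.3 ± 1.84 times in Ly6Glow and 15.5 ± 0.83 times in normal lung libraries (SD, n = 3). No libraries of different groups overlapped in this ratio. Cxcl3 stood at 1.95 ± 0.11, 4.82 ± 0.34 and 1.12 ± 0.031 times Cxcl1 in the same order, again without overlap. By contrast, Cxcl2 over Cxcl3 was 19.6 ± 0.40 in Ly6Ghigh and 19.0 ± 1.02 in Ly6Glow of macrometastatic lung, where the libraries overlapped, and 13.7 ± 0.36 in normal lung. These ratios were chosen after the levels had been seen and are given without a test; with 3 libraries against 3 an exact two-sided permutation test cannot go below p = 0.1.

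Cxcl10, the interferon-induced Cxcr3 ligand also known as IP-10, was 7.87, 7.32 and 8.85 CPM in macrometastatic Ly6Ghigh, 10.5, 10.2 and 10.1 CPM in Ly6Glow and 66.2, 68.7 and 65.3 CPM in normal lung libraries. Normal lung libraries stood far above both macrometastatic groups, whose libraries did not overlap by CPM. By FPKM these groups overlapped, at 6.58 to 7.99 in Ly6Ghigh and 7.7 to 8.03 in Ly6Glow libraries. The difference between Ly6Glow and Ly6Ghigh, which was 0.35 on the log2 scale (SE 0.097; adjusted p = 0.00377 by edgeR), was under the threshold for a call. Against normal lung, Cxcl10 was 8.33-fold lower in Ly6Ghigh (adjusted p = 1.5e-20) and 6.52-fold lower in Ly6Glow neutrophils (adjusted p = 1.11e-19). In estimated counts this was 123.5 to 142.9 reads a library in the macrometastatic groups against 1450 to 1506 in normal lung. Of its exon bases 5.9% overlap Art3 on the opposite strand, and Art3 itself was at 1.69 CPM or less on average in every group.

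Cxcl16, the transmembrane ligand of Cxcr6, was 6.09, 6.38 and 5.88 CPM in macrometastatic Ly6Ghigh, 3.01, 5.95 and 3.89 CPM in Ly6Glow and 54.5, 49.2 and 52.3 CPM in normal lung libraries. By CPM, Ly6Glow replicate 2 lay inside the Ly6Ghigh range and the other Ly6Glow libraries lay below it. Ly6Glow and Ly6Ghigh differed by -0.50 on the log2 scale (SE 0.17; adjusted p = 0.0138 by edgeR), which was not called; it was called without Ly6Glow replicate 2 (-0.825) and with FPKM (-0.60). Against normal lung Cxcl16 was 8.49-fold lower in Ly6Ghigh (log2 fold change -3.09, SE 0.097, adjusted p = 7.7e-18) and 12.04-fold lower in Ly6Glow neutrophils. Zmynd15, on the opposite strand, overlaps 18.3% of the exon bases of Cxcl16, and it too was lower in the macrometastatic groups, at 0.57 and 0.87 CPM against 8.18 CPM. The labels describe strand-specific libraries, but the strand setting of the counting is not given in the sources used here.

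Ccl2, the monocyte chemoattractant MCP-1, was 12.6, 14.8 and 13.2 CPM in macrometastatic Ly6Ghigh, 13.2, 13.2 and 13.5 CPM in Ly6Glow and 27.9, 29.1 and 29.9 CPM in normal lung libraries. Its macrometastatic groups overlapped, with a log2 fold change of -0.022, a 95% interval from -0.20 to 0.15 and an edgeR adjusted p of 0.841. The sign of this value turned with DESeq2 and without Ly6Ghigh replicate 2, at 0.044 and 0.049. With FPKM the macrometastatic groups did not overlap, at 15.67 to 18.49 in Ly6Ghigh and 13.97 to 14.38 in Ly6Glow libraries. That difference was still not called. Against normal lung Ccl2 was 2.15-fold lower in Ly6Ghigh (adjusted p = 1.58e-12) and 2.18-fold lower in Ly6Glow neutrophils (adjusted p = 2.71e-12).

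Ccl3, the Ccr1 ligand MIP-1 alpha, was 146, 141 and 147 CPM in macrometastatic Ly6Ghigh, 262, 270 and 254 CPM in Ly6Glow and 144, 143 and 144 CPM in normal lung libraries. Ly6Ghigh neutrophils of macrometastatic and normal lung overlapped, and all Ly6Glow libraries lay above them. Ccl3 was 1.81-fold higher in Ly6Glow than in Ly6Ghigh of the same stage (log2 fold change 0.86 with an SE of 0.036, adjusted p = 1.02e-14 by edgeR) and 1.83-fold higher than in normal lung neutrophils (adjusted p = 6.12e-16). In Ly6Ghigh neutrophils the value against normal lung was 0.012 (95% interval -0.063 to 0.086), and it depended on the scaling, at -0.18 with upper-quartile normalization and -0.45 with FPKM. With FPKM the difference between Ly6Glow and normal lung was 0.17 and not called.

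Ccl4, MIP-1 beta, which lies 13.2 kb from Ccl3 and attracts monocytes and T cells, was 63.8, 64.1 and 64.8 CPM in macrometastatic Ly6Ghigh, 146, 149 and 145 CPM in Ly6Glow and 102, 94.0 and 102 CPM in normal lung libraries. As with Cxcl3, the groups were fully separated, in the order Ly6Glow, normal lung, macrometastatic Ly6Ghigh. Ccl4 was 2.28-fold higher in Ly6Glow than in Ly6Ghigh neutrophils (log2 fold change 1.19 with an SE of 0.043, adjusted p = 1.02e-15 by edgeR) and 1.55-fold lower in macrometastatic Ly6Ghigh than in normal lung neutrophils (adjusted p = 8.02e-12). Ly6Glow stood at 0.56 against normal lung, just under the threshold, and this became 0.65 and a call with DESeq2 and -0.19 with FPKM. The FPKM of Ccl4 was 0.493 ± 0.013 of that of Ccl3 in macrometastatic Ly6Ghigh, 0.62 ± 0.014 in Ly6Glow and 0.794 ± 0.036 in normal lung libraries, with no overlap.

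Ccl6, a Ccr1 ligand of myeloid cells found in mouse, was second to Cxcl2 in every group. It was 670, 644 and 644 CPM in macrometastatic Ly6Ghigh, 915, 941 and 937 CPM in Ly6Glow and 970, 986 and 931 CPM in normal lung libraries. Macrometastatic Ly6Ghigh libraries were the low ones, and Ly6Glow and normal lung libraries overlapped. Ly6Glow over Ly6Ghigh was 0.51 on the log2 scale (SE 0.031; adjusted p = 5.94e-12 by edgeR), and the value was -0.56 (SE 0.031; adjusted p = 2.04e-13) for macrometastatic Ly6Ghigh over normal lung; neither passed the fold threshold. The second was called with upper-quartile normalization (-0.75), with at least 10 counts in every library (-0.73), with FPKM (-1.02) and without normal lung replicate 3 (-0.58). Between Ly6Glow and normal lung the value was -0.048 (95% interval -0.11 to 0.016), and FPKM moved it to -0.75.

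Ccl9, MIP-1 gamma, the neighbor of Ccl6 and another Ccr1 ligand, was 88.7, 89.4 and 90.5 CPM in macrometastatic Ly6Ghigh, 61.5, 62.7 and 60 CPM in Ly6Glow and 105, 122 and 111 CPM in normal lung libraries. By CPM it alone of the 10 had its groups separated in the order normal lung, Ly6Ghigh, Ly6Glow. With FPKM, Cxcl1, Cxcl16 and Ccl2 were separated in this order too. The value for Ly6Glow over Ly6Ghigh was -0.54 (SE 0.054; adjusted p = 1.47e-08 by edgeR), under the threshold and called with FPKM at -0.75. Macrometastatic Ly6Ghigh over normal lung was -0.33 (SE 0.048; adjusted p = 1.59e-06 by edgeR), also under the threshold and called with FPKM at -0.77. Ccl9 was 1.83-fold lower in Ly6Glow than in normal lung neutrophils (log2 fold change -0.88, SE 0.052, adjusted p = 5.36e-13). Ccl6 exceeded Ccl9 in FPKM by 15.5 ± 0.49 times in macrometastatic Ly6Ghigh, 32.4 ± 0.84 times in Ly6Glow and 18.3 ± 1.34 times in normal lung libraries.

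**Figure D2:**
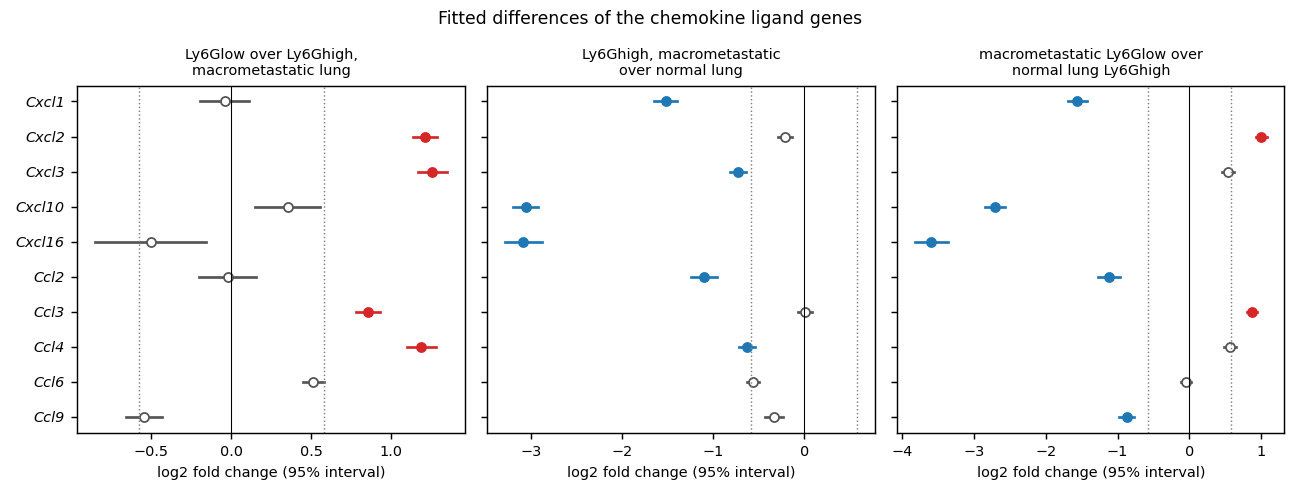
Fitted log2 fold change of each ligand gene with its 95% interval in the 3 comparisons, each with its own horizontal scale; filled red and blue points were called higher and lower, open points were not called, and dotted lines mark -0.58 and 0.58. The left panel shows Cxcl2, Cxcl3, Ccl3 and Ccl4 to the right of the threshold, while Cxcl10 and Cxcl16 lie farthest left in the panels against normal lung; with FPKM the points of Cxcl3 and Ccl4 for Ly6Glow over normal lung turn below 0.

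Read by FPKM, which allows genes to be compared, the repertoire was dominated by a pair of genes. Cxcl2 reached 1526 ± 15.5 FPKM in macrometastatic Ly6Ghigh, 3005 ± 183 in Ly6Glow and 2442 ± 110 in normal lung neutrophils, which ranked it 31, 18 and 12 among all genes with values. Ccl6 followed at 446 ± 8.88, 540 ± 7.18 and 908 ± 31.6 FPKM. Ccl3, Ccl4 and Cxcl3 came next in that order in every group, with Ccl4 and Cxcl3 closest in normal lung replicate 2 (192.5 and 191.8 FPKM). Cxcl1 was sixth in every group. At the lower end, Cxcl16 was at 4.02 ± 0.17 FPKM in macrometastatic Ly6Ghigh and 2.38 ± 0.83 in Ly6Glow, against 47.1 ± 1.93 in normal lung neutrophils, where Ccl2 (50.1 ± 1.98) and Ccl9 (49.8 ± 4.40) did not differ from it beyond their spread.

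The 10 genes made up 97.42% to 97.75% of the FPKM of all 37 chemokine ligand genes with values in macrometastatic Ly6Ghigh, 98.9% to 99.09% in Ly6Glow and 94.02% to 94.15% in normal lung libraries. Cxcl2 alone took 61.4 ± 0.45%, 70.2 ± 1.29% and 52.6 ± 0.41% of it. The share of Cxcl1 was 1.61 ± 0.070% in macrometastatic Ly6Ghigh, 0.769 ± 0.028% in Ly6Glow and 3.41 ± 0.21% in normal lung libraries, and that of Cxcl10 was 0.29 ± 0.028%, 0.183 ± 0.011% and 1.79 ± 0.015%. Cxcl2 was therefore a larger part, and Cxcl1 and Cxcl10 a smaller part, of the ligand RNA in both macrometastatic groups than in normal lung, whichever way libraries are scaled. Of all estimated counts, the 10 genes received 0.261% to 0.263% in macrometastatic Ly6Ghigh, 0.429% to 0.466% in Ly6Glow and 0.46% to 0.497% in normal lung libraries.

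**Figure D3:**
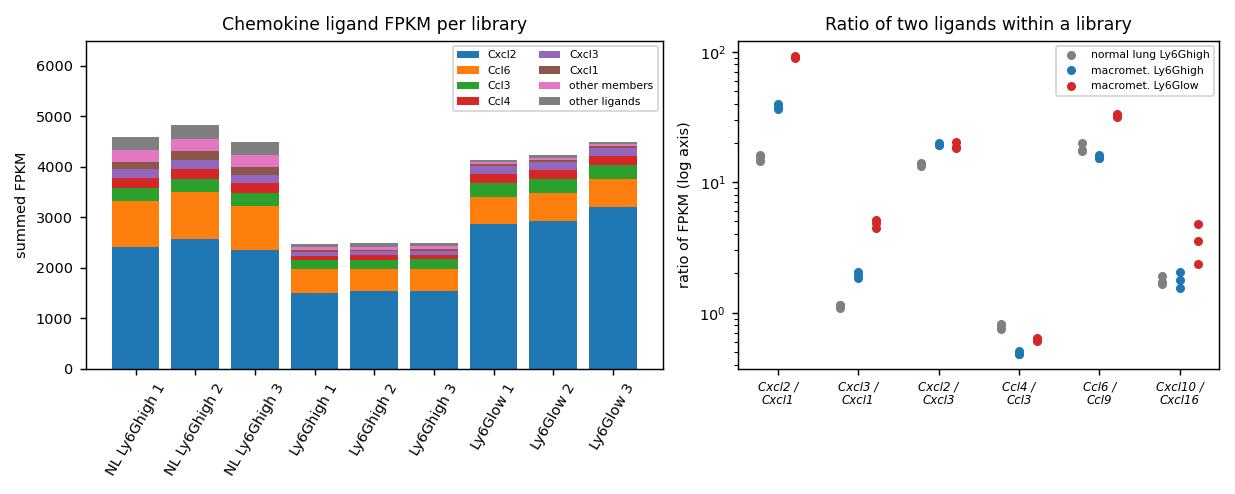
Left, summed FPKM of the chemokine ligand genes in each library, stacked by gene (other members are Cxcl10, Cxcl16, Ccl2 and Ccl9; NL is normal lung). Right, the ratio of the FPKM of a pair of ligands within each library on a log axis; Cxcl2 over Cxcl1 was near 38.2 in macrometastatic Ly6Ghigh (blue), 91.3 in Ly6Glow (red) and 15.5 in normal lung (grey), while Cxcl2 over Cxcl3 overlapped between the macrometastatic groups.

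Among themselves, the ligands' patterns over the 9 libraries were compared by the root mean square distance of centred log2 CPM, as a description. Cxcl3 and Ccl4, on different chromosomes, were the closest pair at 0.085, followed by Cxcl2 with Ccl3 (0.16), while Cxcl2 and Cxcl3, of 1 cluster, were at 0.24 and Ccl3 and Ccl4 at 0.26. Over all tested genes Gpat3, which makes lysophosphatidic acid in lipid synthesis, was the nearest to both Cxcl3 (0.058) and Ccl4 (0.039). Slc44a1, a choline transporter, was nearest to Cxcl2 (0.069), Sra1 (0.046) and Litaf (0.048) to Ccl3, and Mmp19 (0.034), a matrix metalloproteinase, to Ccl6. For Cxcl1 these were Aldh6a1 (0.075) and H2-Q6 (0.079), for Ccl2 Bcl2 (0.08) and Jag1 (0.084), for Cxcl10 Jcad (0.073) and Tmem100 (0.083), for Cxcl16 Kcnk3 (0.14) and Acvr1 (0.17), and for Ccl9 Naa15 (0.056) and Ddb1 (0.058). With 3 groups many genes share an order, and the median distance of all tested genes was 0.60 to 1.58 depending on the ligand.

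The other chemokine ligand genes were low and went mostly one way. Of 31 listed, 19 were tested. None was called higher by edgeR or DESeq2 in Ly6Glow than in Ly6Ghigh neutrophils (1 at an unadjusted p under 0.05), and 2 were lower by edgeR, Cxcl14 (1.16 to 0.54 CPM, edgeR adjusted p = 0.00829) and Cx3cl1 (1.56 to 0.96 CPM, adjusted p = 0.0312), both near 1 CPM. Without Ly6Ghigh replicate 1 neither was called and without Ly6Ghigh replicate 2 only 1 was. Against normal lung, 17 were lower and 1, Ccl24, was higher in each macrometastatic group, with median log2 fold changes of -2.12 in Ly6Ghigh and -2.47 in Ly6Glow, beside -0.68 and -0.46 for the 10 ligand genes. Of all tested genes, 36.6% were called lower and 26.3% higher in Ly6Ghigh, and 40.8% and 28.7% in Ly6Glow. Between Ly6Glow and Ly6Ghigh the shares were 9.29% higher and 15.9% lower.

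Cxcl9, like Cxcl10 an interferon-induced ligand of Cxcr3, was 3.47 ± 0.14 CPM in macrometastatic Ly6Ghigh, 3.27 ± 0.74 CPM in Ly6Glow and 70.1 ± 2.49 CPM in normal lung libraries, 20.2-fold and 21.3-fold lower. Ccl21a, which guides Ccr7-bearing cells, was 1.01, 1.03 and 18.6 CPM on average in the same order, and Cxcl14 was 9.63 CPM in normal lung. Ccl24, an eosinophil attractant, was the one ligand of this list that was higher, at 17.8 ± 1.76 and 13.6 ± 1.23 CPM against 5.74 ± 0.24 CPM (adjusted p = 5.46e-13 and 2.73e-10), of which the second was not called with FPKM. The summed level of 5 eosinophil markers, Prg2 among them, was 49.5 to 54.3 CPM in macrometastatic Ly6Ghigh, 6.79 to 7.90 CPM in Ly6Glow and 2.83 to 3.97 CPM in normal lung libraries, and its part in the Ccl24 values was not tested.

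**Figure D4:**
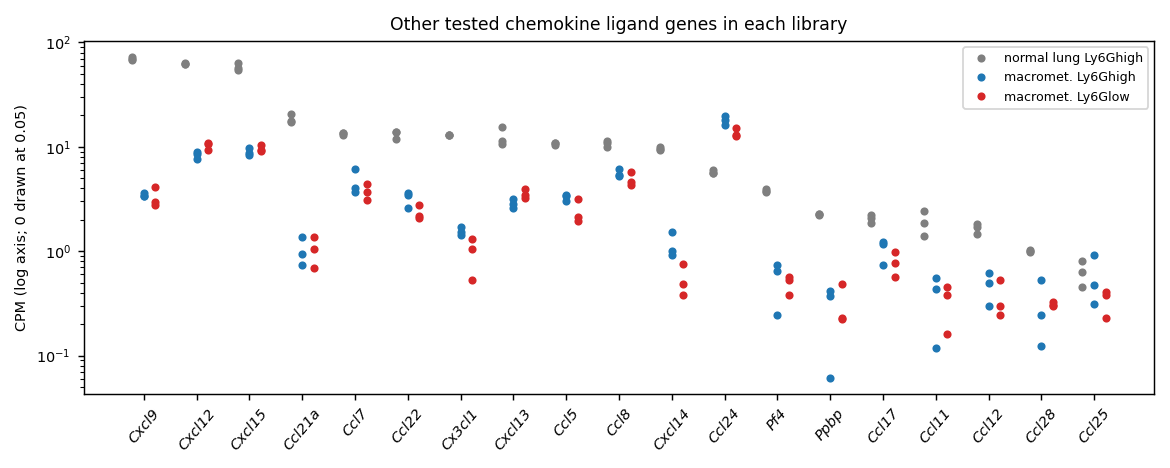
CPM of the 19 other tested chemokine ligand genes in each library on a log axis, ordered by their level in normal lung, in the colors of the plot of the ligand genes by library. Ccl24 is the gene whose macrometastatic libraries lie clearly above normal lung, and Cxcl9 falls from 70.1 CPM in normal lung to 3.47 and 3.27 CPM.

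The receptors of these ligands were counted from a list of 8. Of these, 3 were higher and none lower in Ly6Glow than in Ly6Ghigh neutrophils by edgeR and DESeq2 (1 was lower at an unadjusted p under 0.05). With FPKM 1 was higher and 1 lower, beside 320 higher and 1923 lower of the 14108 tested genes. By edgeR 9.29% of all tested genes were called higher and 15.9% lower in this comparison. Cxcr2, which binds Cxcl1, Cxcl2 and Cxcl3, was 1716 CPM on average in macrometastatic Ly6Ghigh, 2713 CPM in Ly6Glow and 516 CPM in normal lung libraries, and Cxcr1 was 51.2, 160 and 10.6 CPM. Ccr1, the receptor of Ccl3, Ccl6 and Ccl9, was 1036, 1611 and 812 CPM. It was called higher in Ly6Glow than in both other groups and not in Ly6Ghigh over normal lung (log2 fold change 0.35). With FPKM Ccr1 was 353 ± 1.73, 466 ± 20.5 and 382 ± 28.6. There the Ly6Glow differences were under the fold threshold, and macrometastatic Ly6Ghigh stood below normal lung. In contrast, Cxcr3, the receptor of Cxcl10, was 0.91, 0.85 and 1.75 CPM, and Cxcr6, the receptor of Cxcl16, 2.69, 2.78 and 6.72 CPM, both lower in the macrometastatic groups than in normal lung. Ccr2, the receptor of Ccl2, was 110, 75.2 and 49.3 CPM, called higher in both macrometastatic groups than in normal lung; with FPKM it was 28.9 ± 1.13, 16.8 ± 1.17 and 17.9 ± 2.17, so that Ly6Glow no longer stood above normal lung. Of the 8, 3 were higher and 4 lower in Ly6Ghigh than in normal lung neutrophils, beside 26.3% and 36.6% of all tested genes. In Ly6Glow neutrophils 4 were higher and 4 lower, beside 28.7% and 40.8%. The FPKM fit gave 2 higher and 4 lower in Ly6Glow, beside 1125 and 6438 of the 14108 tested genes.

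Of 3 enzymes that cut these ligands, Adam17 was higher in Ly6Glow, at 387 ± 5.03 CPM against 240 ± 1.77 CPM in macrometastatic Ly6Ghigh and 252 ± 3.25 CPM in normal lung. Adam10, the sheddase of Cxcl16, was 191 ± 3.14 CPM in macrometastatic Ly6Ghigh and 208 ± 7.78 CPM in Ly6Glow against 103 ± 9.06 CPM in normal lung libraries, called higher in both, in the opposite direction to Cxcl16 itself. Dpp4, which trims Cxcl10, was lower in both macrometastatic groups, at 6.14 and 5.5 CPM against 31.8 CPM. With FPKM none of the 3 was called higher in any comparison. That fit called 320 of the 14108 tested genes higher in Ly6Glow than in Ly6Ghigh. Against normal lung it called 1429 higher in Ly6Ghigh and 1125 in Ly6Glow. Adam17 was then lower in Ly6Glow than in normal lung, at 70.9 ± 1.02 against 75.1 ± 1.59 FPKM.

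Inducers and regulators of NF-kB, a pathway that drives many chemokine genes, were counted from a list of 18. The list mixes activators with inhibitors and other regulators, so its counts do not measure pathway activity. Of the 18, 13 were higher and none lower in Ly6Glow than in Ly6Ghigh neutrophils by edgeR and DESeq2. At an unadjusted p under 0.05, 1 was lower, and the median log2 fold change was 0.69. The 13 by edgeR included the inhibitors Nfkbia, Nfkbib and Nfkbie. They also included Zfp36l1, Zc3h12a and Dusp1, at log2 fold changes of 0.98, 0.71 and 0.80. With FPKM 4 of the 18 were called higher and 1 lower, beside 320 higher and 1923 lower of the 14108 tested genes. By edgeR 9.29% of all tested genes were called higher and 15.9% lower in this comparison. Il1b, the inflammatory cytokine interleukin-1 beta, went from 2799 ± 54.3 CPM in macrometastatic Ly6Ghigh to 6698 ± 77.2 CPM in Ly6Glow, 2.39-fold (edgeR adjusted p = 1.8e-19), with 4093 ± 43.4 CPM in normal lung libraries. With FPKM Il1b was 2027 ± 36.3 in macrometastatic Ly6Ghigh, 4115 ± 41.6 in Ly6Glow and 4087 ± 26.3 in normal lung. Ly6Glow and normal lung libraries then overlapped. Nfkbia, the NF-kB inhibitor that is itself a target of the pathway, was 1253, 2238 and 419 CPM in the same order. Against normal lung 3 of the 18 were higher and 4 lower in Ly6Ghigh neutrophils, which became 2 and 8 with FPKM. Of all tested genes, 26.3% were called higher and 36.6% lower there by edgeR, and 1429 and 5134 of the 14108 with FPKM. In Ly6Glow neutrophils 9 of the 18 were higher and 1 lower, which became 3 and 2 with FPKM. The shares of all tested genes were 28.7% higher and 40.8% lower by edgeR, and 1125 and 6438 of the 14108 with FPKM.

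Of 10 tested genes of the interferon pathway, 6 were higher and none lower in Ly6Glow than in macrometastatic Ly6Ghigh neutrophils, and 6 were lower and none higher in macrometastatic Ly6Ghigh than in normal lung neutrophils, by edgeR and DESeq2. At an unadjusted p under 0.05 none was lower in the first and 1 was higher in the second comparison. The FPKM fit called 2 higher in the first, beside 320 of the 14108 tested genes. In Ly6Glow against normal lung 1 was higher and 5 were lower. Of all tested genes, the shares called higher and lower were 9.29% and 15.9% for Ly6Glow over Ly6Ghigh. Against normal lung they were 26.3% and 36.6% in Ly6Ghigh, and 28.7% and 40.8% in Ly6Glow. With FPKM none of the 10 was higher in either comparison with normal lung, and 9 were lower in Ly6Ghigh and 8 in Ly6Glow neutrophils. Among the 14108 tested genes, that fit called 1429 higher and 5134 lower in Ly6Ghigh, and 1125 higher and 6438 lower in Ly6Glow. Isg15, a ubiquitin-like protein induced by interferon, was 36.6 ± 1.00 CPM in macrometastatic Ly6Ghigh, 105 ± 8.14 CPM in Ly6Glow and 217 ± 17.1 CPM in normal lung libraries, and Rsad2, the antiviral protein viperin, was 9.08 ± 0.94, 20.5 ± 0.47 and 253 ± 10.7 CPM. Cxcl10 had the same order of groups as these genes by CPM, with a smaller step between Ly6Ghigh and Ly6Glow. By FPKM the Cxcl10 libraries of Ly6Ghigh and Ly6Glow overlapped.

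Markers of other lung cells were higher in the normal lung libraries, where Cxcl1, Cxcl10, Cxcl16, Ccl2, Ccl9 and most other ligands were also highest. The summed level of 6 epithelial and tumor cell markers was 81.0 to 84.5 CPM in macrometastatic Ly6Ghigh, 86.2 to 91.2 CPM in Ly6Glow and 854 to 952 CPM in normal lung libraries, with Sftpc, the alveolar surfactant protein gene, making up 86.1% in normal lung. That of 4 endothelial markers was 107 to 112, 132 to 140 and 652 to 697 CPM, and that of 4 fibroblast markers 37.7 to 43.6, 39.6 to 43.7 and 442 to 474 CPM. All 6 epithelial, 4 endothelial and 4 fibroblast markers were called lower in macrometastatic Ly6Ghigh than in normal lung neutrophils, as were 5 of 6, 4 of 4 and 4 of 4 in Ly6Glow. Of all tested genes 36.6% and 40.8% were called lower in these comparisons. None of these markers was at 0 in all libraries of a group. The part of these cells in the values of the ligand genes was not tested, and in bulk samples fewer cells of a type and less RNA per cell cannot be told apart.

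Macrophage markers separated the macrometastatic groups as well. The summed level of 14 monocyte and macrophage markers was 1313 to 1316 CPM in macrometastatic Ly6Ghigh, 996 to 1032 CPM in Ly6Glow and 2043 to 2145 CPM in normal lung libraries, and 6 of the 14 were lower and none higher in Ly6Glow than in Ly6Ghigh by edgeR (5 and none by DESeq2; 10 and 2 at an unadjusted p under 0.05). For 12 alveolar macrophage markers it was 1538 to 1584, 372 to 397 and 1848 to 1873 CPM, with 9 lower and none higher in Ly6Glow by edgeR (8 and none by DESeq2; 10 and none at an unadjusted p under 0.05); Chil3, which neutrophils also express, made up 82.0% of it in Ly6Ghigh. By edgeR 15.9% of all tested genes were called lower and 9.29% higher in Ly6Glow than in Ly6Ghigh. The part of macrophages in the values of the ligand genes was not tested. Dendritic cell markers (6) summed to 14.2 to 16.0, 14.7 to 16.5 and 44.6 to 49.98 CPM, T and NK cell markers (7) to 41.6 to 42.5, 28.1 to 28.6 and 59.5 to 60.5 CPM, B cell markers (3) to 33.5 to 35.3, 19.9 to 21.96 and 18.2 to 20.6 CPM, basophil and mast cell markers (6) to 28.6 to 30.6, 16.1 to 18.1 and 3.61 to 3.86 CPM, and platelet markers (3) to 8.11 to 10.5, 7.72 to 9.93 and 8.38 to 9.63 CPM.

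**Figure D5:**
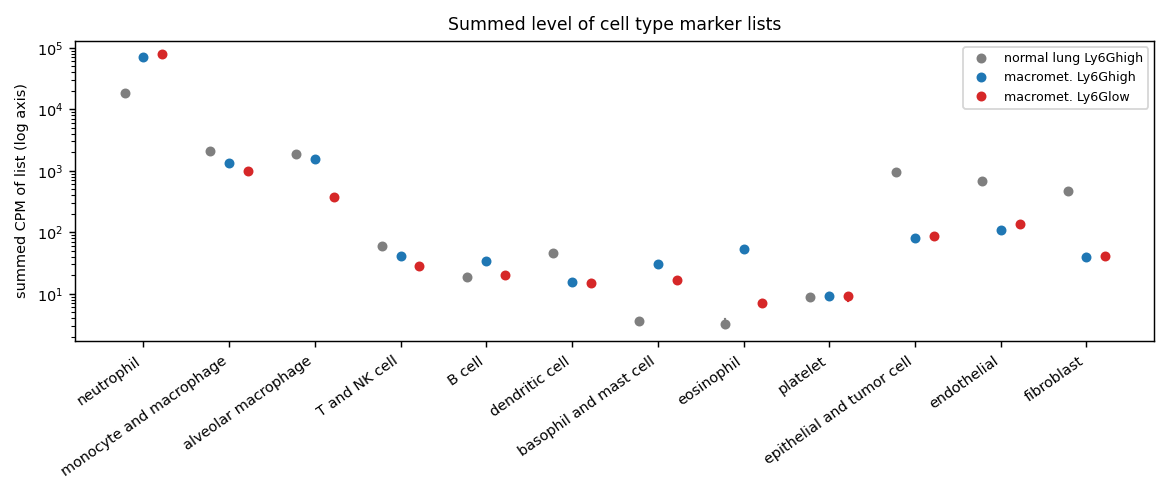
Summed CPM of the cell type marker lists on a log axis; points are the median of 3 libraries and lines run from the lowest to the highest. Epithelial, endothelial and fibroblast markers lie far higher in normal lung (grey) than in either macrometastatic group, and alveolar macrophage markers are lowest in Ly6Glow (red), at 372 to 397 CPM.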

How the data were processed

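RNA-seq of 9 libraries was analysed from tables of the whole series. The authors deposited an estimated count and an FPKM value per gene and library; the estimated counts, as deposited, carry no normalization, and the FPKM values, as deposited, are scaled for transcript length and depth. Reads were 150 bp paired-end from poly(A)-selected, strand-specific libraries per the labels, and the build in the submitters' processing notes is mm10; the aligner and counter are not given in the sources used here. Of the estimated counts 37.9% were whole, and all were rounded. Of 22064 listed genes 3739 were blank and 14108 passed filterByExpr by group. Counts were fitted in R 4.3.3 with edgeR 4.0.16 (TMM, quasi-likelihood test, 9 libraries in 1 model of 3 groups), with Benjamini-Hochberg adjustment over all tested genes. SE was the log2 fold change over the square root of F. The study's methods name DESeq2 at the same fold threshold. DESeq2 1.42.0 and limma 3.58.1 on log2 FPKM were alternatives. All were run on simulated counts, limma there on log2 CPM in place of FPKM. The simulation did not model the shift in scaling between these groups, so it cannot decide between the alternatives where they differ. Fold changes on log2(FPKM + 1) understate those of low genes. The median biological coefficient of variation was 0.043. No pair of libraries was identical. The ligand genes and 18 further gene lists were chosen with earlier results of these data known; of 163 listed genes 4 were absent (Cxcl11, Mx1, Siglec5, Trac), and 1 receptor gene is not reported here. Named genes were all 10 ligands, the 3 largest called increases and decreases of other ligands with at least 1 CPM, the 2 genes nearest to each ligand, and genes of the receptor, enzyme, NF-kB, interferon and marker lists. Exon overlaps and shared 50-base windows came from GENCODE M21, and promoters from RefSeq.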

Additional observations from a re-analysis of the deposited data

How the results depend on the processing

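The calls of Cxcl2, Cxcl3, Ccl3 and Ccl4 between Ly6Glow and Ly6Ghigh, and those of Cxcl1, Cxcl10, Cxcl16 and Ccl2 against normal lung, kept their direction and threshold under the alternatives of normalization, test, filter, unit, pseudocount, replicate block and left-out library. Of 540 log2 fold changes of the ligand genes under alternatives, 500 kept direction and side, 21 became called, 4 lost the call and 15 changed sign. Signs turned for Cxcl1 (0.0247 with DESeq2 size factors, 0.0243 with DESeq2) and Ccl2 (0.0434, 0.0437, and -0.0759 to 0.0485 with a library left out) in Ly6Glow over Ly6Ghigh. They turned for Ccl6 in Ly6Glow over normal lung (0.042 with both). For Ccl3 in Ly6Ghigh over normal lung they turned with upper-quartile normalization (-0.181), at least 10 counts in every library (-0.162) and log2 FPKM with a pseudocount of 1 (-0.451) or 0.1 (-0.453). With these pseudocounts Cxcl3 (-0.166, -0.167) and Ccl4 (-0.187, -0.188) turned in Ly6Glow over normal lung. Without a fold threshold 8 ligand genes were called between Ly6Glow and Ly6Ghigh, beside 3686 genes higher and 4182 lower of the 14108 tested. At a threshold of 1 the ligand genes called were 3 in place of 4, Ccl3 being lost. Against normal lung they were 4 in place of 6 in Ly6Ghigh and 5 in place of 7 in Ly6Glow. Of all tested genes, a threshold of 1 left 342 higher and 963 lower between Ly6Glow and Ly6Ghigh. Against normal lung it left 1900 and 4112 in Ly6Ghigh, and 2285 and 4800 in Ly6Glow. The other ligands called between Ly6Glow and Ly6Ghigh, 2 of 19, became 1 with DESeq2 or a threshold of 1, 0 with at least 10 counts in every library, 6 without a threshold or with log2(FPKM + 0.1), and 0 to 3 with a library left out. With at least 10 counts in every library, which leaves fewer genes, 9 were called in each comparison with normal lung. Beyond the scalings' own construction, the cause was not tested. Deviations of libraries from their group means correlated at -0.0683 to 0.0766 for the same replicate number and -0.0998 to 0.139 for others. With 3 libraries a group and little spread between them, this cannot exclude a pairing of the libraries. With the replicate block 4, 6 and 7 ligand genes were called, as without it. Low counts limited Cxcl16, at 37 to 79 estimated counts in the Ly6Glow libraries.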
